A study of Rattus norvegicus with 16 samples.

Results

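The genes described here are Tspo, the gene of the translocator protein, and 7 genes whose products bind it or sit beside it in the mitochondrial membranes: Dbi, Acbd3, Vdac1, Vdac2, Vdac3, Slc25a5 and Atad3a. They were taken by symbol from a table of 17168 genes, with earlier results of these data known. All 8 passed the filter on low counts that 11162 genes passed. Messenger RNA was measured by RNA sequencing in livers of Sprague Dawley rats, 4 libraries in each of 4 groups: Tspo knockout on a methionine- and choline-deficient diet (KO-MCD), wild type on that diet (WT-MCD), knockout on ordinary chow (KO-CHOW) and wild type on chow (WT-CHOW). The MCD diet withholds nutrients needed to make phosphatidylcholine and is used to bring on a fatty, inflamed liver. It began at 12 weeks of age and ran for 8 weeks, so all rats were 20 weeks old at sampling. The series title speaks of mice, while every sample is labelled rat. The labels name neither the deleted part of Tspo nor the founder line of the knockout, and they do not say whether each library came from its own animal, so p-values here compare a difference with the spread among libraries, which may be technical.

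TSPO is a small protein of the outer mitochondrial membrane that binds cholesterol and many drugs. It is abundant in steroid-forming cells and in activated macrophages, and much scarcer in most other cells. DBI, also called acyl-CoA-binding protein, carries long-chain acyl-CoA esters inside cells, and it or its peptides bind TSPO. ACBD3 is a Golgi protein that also binds TSPO and a regulatory subunit of protein kinase A. VDAC1, VDAC2 and VDAC3 are the porins through which metabolites cross the outer membrane, SLC25A5 is an exchanger of ADP for ATP in the inner membrane, and ATAD3A is an inner-membrane ATPase that reaches towards the outer membrane.

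Library totals ran from 8745756 to 15762650 counts. In a principal component analysis of the 16 libraries, 3 stood apart on the second component, which held 16.1% of the variance: KO-MCD 1 scored 44.2, KO-CHOW 4 scored 63.7 and WT-CHOW 4 scored 33.0, while the other libraries scored -43.2 to 9.1, the low end being WT-CHOW 3 (-43.2) and WT-CHOW 1 (-38.4), both farther from 0 than WT-CHOW 4. The 3 at the high end also had the lowest index of message length, the mean log2 level of 13 long messages minus that of 24 short ones. It was -1.01 in KO-MCD 1, -1.42 in KO-CHOW 4 and -0.46 in WT-CHOW 4, against 0.88 to 1.52 in the other MCD libraries and -0.16 to 0.24 in the other chow libraries. The part of message length, RNA quality or any batch in the results was not tested, and the values without these 3 libraries are given where they differ. The hepatocyte list of 12 genes was measured in full, and its summed level of 105800 to 261600 CPM over the 16 libraries fits liver tissue. CPM are counts per library, scaled by its total and a TMM factor (a trimmed mean of gene ratios that lines up the bulk of genes).

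The promoters of Dbi, Vdac2 and Atad3a are shown because these 3 genes changed with the diet and have an entry among the RefSeq promoters of assembly GRCr8, as do 6 of the 8 genes. Each sequence is the 250 bases before the gene's start, on the gene's strand, and the capitals mark every match on either strand to 5 motifs. The CCAAT box was searched by the letters of its name. The GC box was searched as GGGCGG, and no overlap with another motif was found in these windows. The TATA box was searched as TATAAA and the E-box as CACGTG. The sterol regulatory element was searched as TCACCCCAC. The build differs from the rn6 build of the counts, so the coordinates are those of GRCr8 alone.
Dbi, chr13:33802619-33802868, minus strand: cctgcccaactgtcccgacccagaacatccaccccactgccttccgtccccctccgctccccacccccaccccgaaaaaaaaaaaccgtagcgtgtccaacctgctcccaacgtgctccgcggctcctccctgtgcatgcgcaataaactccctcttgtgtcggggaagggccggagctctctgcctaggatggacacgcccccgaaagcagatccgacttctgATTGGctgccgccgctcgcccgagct
Vdac2, chr15:2525887-2526136, minus strand: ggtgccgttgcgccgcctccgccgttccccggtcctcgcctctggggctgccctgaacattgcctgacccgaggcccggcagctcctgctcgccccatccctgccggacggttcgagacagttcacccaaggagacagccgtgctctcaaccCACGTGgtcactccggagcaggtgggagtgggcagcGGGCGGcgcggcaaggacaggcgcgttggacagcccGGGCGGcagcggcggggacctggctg
Atad3a, chr5:171652726-171652975, minus strand: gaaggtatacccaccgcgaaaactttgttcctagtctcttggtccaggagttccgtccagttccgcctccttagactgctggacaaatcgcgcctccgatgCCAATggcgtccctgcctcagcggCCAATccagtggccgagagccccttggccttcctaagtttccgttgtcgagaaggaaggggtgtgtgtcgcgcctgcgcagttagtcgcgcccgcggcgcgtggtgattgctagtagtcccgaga
The Dbi window held 1 CCAAT box, on the opposite strand, which begins 26 bases before the start. The Vdac2 window held 1 E-box, 98 bases before the start, and 2 GC boxes, at 62 and 26 bases. The Atad3a window held 2 CCAAT boxes, at 149 and 125 bases. A CCAAT box occurred in 34.0% of 33469 promoters of this length, a GC box in 30.5% and an E-box in 5.59%. None of the 3 windows held TATAAA or TCACCCCAC, which occurred in 12.9% and 0.409% of all promoters. These matches describe the letters only.

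Tspo (NCBI gene 24230, chromosome 7) was low in every liver, and lowest in knockout livers other than KO-MCD 1 and KO-CHOW 4. On the MCD diet the level was 4.17, 1.66, 1.02 and 1.21 CPM in KO-MCD libraries 1 to 4, against 8.78, 9.33, 7.94 and 7.63 CPM in WT-MCD libraries 1 to 4. Every KO-MCD library lay below every WT-MCD library, as was so for 0.376% of all genes tested (0.421% lay above and 0.797% did either), and KO-MCD 1 lay above the other KO-MCD libraries. On chow the level was 1.14, 0.656, 1.29 and 4.42 CPM in KO-CHOW libraries 1 to 4, against 3.80, 4.37, 3.61 and 5.23 CPM in WT-CHOW libraries 1 to 4. KO-CHOW 4 lay inside the wild-type range and the other 3 knockouts lay below it. The values rest on 6 to 60 counts per knockout library and 25 to 162 per wild-type library. The lowest, 0.656 CPM in KO-CHOW 2, had an exact Poisson 95% interval of 0.241 to 1.43 CPM, which covers counting error only.

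The knockout comparison checks the labels. Tspo averaged 2.02 ± 1.46 CPM in KO-MCD and 8.42 ± 0.78 CPM in WT-MCD livers (SD, n = 4 each), a log2 fold change of -2.07 ± 0.45 (SE). edgeR's quasi-likelihood test gave an unadjusted p of 0.000291 and, after Benjamini-Hochberg adjustment over all 11162 genes, 0.9999. On chow it averaged 1.87 ± 1.72 CPM in KO-CHOW and 4.25 ± 0.73 CPM in WT-CHOW livers, a log2 fold change of -1.23 ± 0.49 with an adjusted p of 0.46. Neither passed the threshold of 0.05. With KO-MCD 1, KO-CHOW 4 and WT-CHOW 4 left out, the log2 fold change was -2.68 on MCD (adjusted p = 4.88e-05) and -1.93 on chow (adjusted p = 0.00462), but 2 of the libraries so removed are the knockouts with the most Tspo, so these values are a description. Without KO-MCD 1 alone it was -2.68 on MCD (adjusted p = 0.15), and without KO-CHOW 4 alone it was -2.04 on chow (adjusted p = 0.23). Since the deleted part is not named, reads that remain in knockout livers cannot be set against it, and KO-MCD 1 (4.17 CPM) and KO-CHOW 4 (4.42 CPM) lay inside the WT-CHOW range of 3.61 to 5.23 CPM. Whether these 2 libraries labelled knockout were exchanged or mixed with other samples was not tested, and both enter every knockout mean, fold change and call unless stated.

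**Figure D1:**
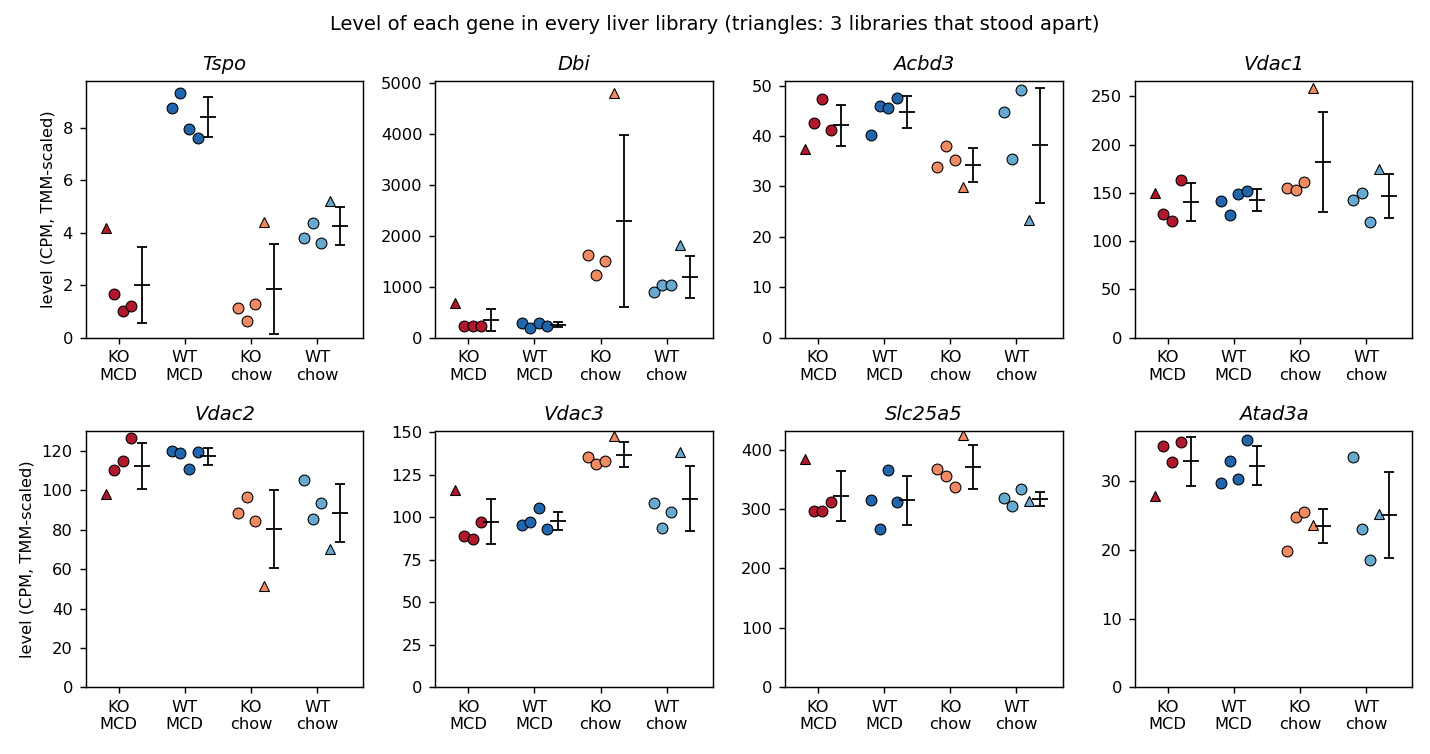
Level of each of the 8 genes in TMM-scaled CPM (y axis) in each library of the 4 groups (x axis). Points are libraries, triangles are KO-MCD 1, KO-CHOW 4 and WT-CHOW 4, and bars are the mean ± SD over 4 libraries. Tspo in WT-MCD livers (7.63 to 9.33 CPM) lies above every other library, and Dbi in MCD livers (193 to 673 CPM) lies below every chow library (906 to 4809 CPM).

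Within the wild type, Tspo levels on the 2 diets did not overlap. They were 7.63 to 9.33 CPM in WT-MCD and 3.61 to 5.23 CPM in WT-CHOW livers, a log2 fold change of 0.98 ± 0.44 with an adjusted p of 0.093, which did not pass. In this comparison the groups of 38% of all genes tested did not overlap, 20.1% with MCD higher and 18% with MCD lower. The call was made when only the wild-type groups were fitted (0.98, adjusted p = 0.00258), without KO-MCD 1 (adjusted p = 0.042) or KO-CHOW 4 (adjusted p = 0.027), and in 8 of 28 alternatives in all. In the knockout the log2 fold change was 0.14 ± 0.49 (adjusted p = 0.84), and it was -0.47 without KO-MCD 1 and 0.95 without KO-CHOW 4. With the index of message length as a covariate both changes were called, 1.00 in the knockout (adjusted p = 0.0498) and 1.98 in the wild type (adjusted p = 0.000519). The index itself differed between the diets, at 0.88 to 1.52 in MCD libraries other than KO-MCD 1 (-1.01). In chow libraries it was -1.42 to 0.24, so this fit separates diet from index only in part. The difference of the diet effects, knockout minus wild type, was -0.84 ± 0.66 (adjusted p = 0.9999). By their means the groups ran, from low to high, KO-CHOW, KO-MCD, WT-CHOW and WT-MCD, and WT-MCD did not overlap WT-CHOW. KO-CHOW and KO-MCD overlapped each other, and they overlapped WT-CHOW only through KO-CHOW 4 and KO-MCD 1.

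Macrophages are a known site of Tspo, and the levels of their markers are given beside it. Of 25 listed macrophage genes 22 were measured, none was at 0 in all libraries, and the diet raised 8 and lowered 4 in the knockout and raised 8 and lowered 2 in the wild type. Over all genes tested, 21.9% were called higher and 18.5% lower in the knockout, and 18.2% higher and 15.9% lower in the wild type. The summed level of the 22 ran from 945 to 1339 CPM in KO-MCD, 929 to 1458 CPM in WT-MCD, 837 to 1273 CPM in KO-CHOW and 757 to 1034 CPM in WT-CHOW livers, so all groups overlapped. This sum joins genes that moved in opposite directions, of which 5 are named after their values were seen. Gpnmb, a glycoprotein of lipid-laden macrophages, was at 179 ± 46.7 CPM in KO-MCD, 185 ± 71.2 CPM in WT-MCD, 10.7 ± 5.37 CPM in KO-CHOW and 7.78 ± 1.15 CPM in WT-CHOW livers. Trem2, a lipid receptor, ran from 3.15 to 11.4 CPM in KO-MCD and 2.50 to 12.5 CPM in WT-MCD livers, against 0 to 0.297 CPM in KO-CHOW and 0 to 0.433 CPM in WT-CHOW livers. Both were called higher in both genotypes, as was Lyz2, a lysozyme (log2 fold change 2.06 ± 0.44 in the knockout and 1.96 ± 0.44 in the wild type). Clec4f, a marker of resident Kupffer cells, and Marco, a scavenger receptor, fell: Clec4f was at 69.8 ± 30.7 CPM in KO-MCD, 55.1 ± 27.7 CPM in WT-MCD, 224 ± 37.0 CPM in KO-CHOW and 156 ± 40.1 CPM in WT-CHOW livers. Of 8 genes of steroid-forming cells, summed at 18.3 to 31.1 CPM in KO-MCD, 11.3 to 43.6 CPM in WT-MCD, 11.8 to 14.2 CPM in KO-CHOW and 14.2 to 26.3 CPM in WT-CHOW livers, Cyp11b1, Mc2r and Lhcgr were at 0 in every library and 2 passed the filter. Cyp17a1, a steroid hydroxylase, was called higher on MCD in the knockout (22.2 ± 6.94 CPM in KO-MCD against 8.53 ± 4.11 CPM in KO-CHOW livers), and Cyp11b2, aldosterone synthase, lower in the wild type (0.900 ± 0.530 CPM in WT-MCD against 5.49 ± 1.71 CPM in WT-CHOW livers). In whole liver, fewer cells of a type and less RNA per cell cannot be told apart, and the part of macrophages in the Tspo level was not tested.

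Dbi (NCBI gene 25045, chromosome 13), the acyl-CoA carrier, had the largest diet change of the 8 genes and fell on the MCD diet in both genotypes. In the knockout the level was 673, 225, 233 and 240 CPM in KO-MCD libraries 1 to 4, against 1629, 1222, 1517 and 4809 CPM in KO-CHOW libraries 1 to 4. In the wild type it was 294, 193, 289 and 231 CPM in WT-MCD libraries 1 to 4, against 906, 1028, 1038 and 1815 CPM in WT-CHOW libraries 1 to 4. In both genotypes every MCD library lay below every chow library, and KO-MCD 1, KO-CHOW 4 and WT-CHOW 4 were each far above the rest of their group. The log2 fold change was -2.74 ± 0.46 in the knockout (edgeR, adjusted p = 0.000347) and -2.25 ± 0.45 in the wild type (adjusted p = 0.00155). Genes called lower made up 18.5% of all genes tested in the knockout and 15.9% in the wild type. Genes whose groups did not overlap made up 31.6% in the knockout, 17.6% with MCD higher and 14% with MCD lower. In the wild type they made up 38%, 20.1% with MCD higher and 18% with MCD lower.

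The Dbi calls were made under each of 29 alternatives in both genotypes, with log2 fold changes of -3.30 to -1.74 in the knockout and -2.38 to -1.17 in the wild type. Without the 3 libraries that stood apart, Dbi averaged 233 ± 7.66 CPM in KO-MCD (n = 3) and 1456 ± 210 CPM in KO-CHOW livers (n = 3), and 252 ± 48.3 CPM in WT-MCD (n = 4) and 991 ± 73.5 CPM in WT-CHOW livers (n = 3). The index of message length differed between diets too, and with it as a covariate the changes were -1.74 in the knockout (adjusted p = 0.000152) and -1.17 in the wild type (adjusted p = 0.00242). Summed hepatocyte markers also lay lower on the diet: 111900 to 135300 CPM in KO-MCD against 194000 to 261600 CPM in KO-CHOW livers, and 105800 to 148100 CPM in WT-MCD against 184900 to 235100 CPM in WT-CHOW livers. Of the 12 hepatocyte genes 6 fell in the knockout and 7 in the wild type, beside 18.5% and 15.9% of all genes tested. Apoa1, Cps1, Hnf4a, Tat and Tf were called in neither genotype. Alb weighed most in the sum, averaging 70885 CPM in KO-MCD and 147043 CPM in KO-CHOW livers. The part of the hepatocyte markers in the fall of Dbi was not tested.

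Between genotypes Dbi was not called. On chow it averaged 2294 ± 1685 CPM in KO-CHOW and 1197 ± 416 CPM in WT-CHOW livers (SD, n = 4 each), a log2 fold change of 0.94 ± 0.44 (adjusted p = 0.48) that was 0.28 without KO-CHOW 4. On MCD it averaged 343 ± 220 CPM in KO-MCD and 252 ± 48.3 CPM in WT-MCD livers, a log2 fold change of 0.45 ± 0.43 (adjusted p = 0.9999) that was -0.11 without KO-MCD 1. The difference of its diet effects was -0.49 ± 0.61 (adjusted p = 0.9999).

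**Figure D2:**
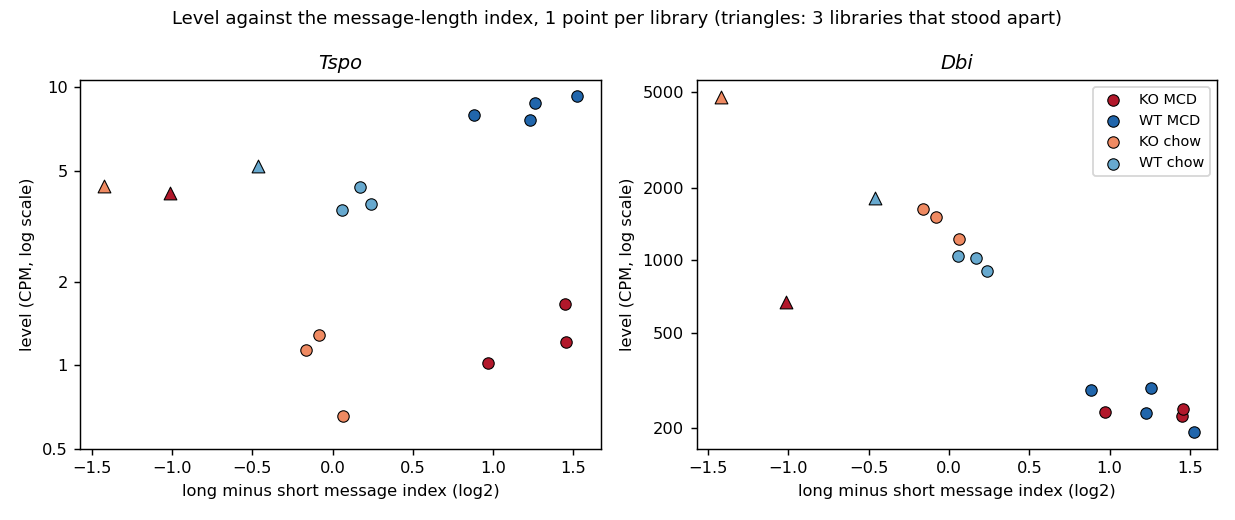
Level of Tspo (left) and Dbi (right) in CPM on a log axis against the index of message length (x axis, log2), 1 point per library, with triangles for KO-MCD 1, KO-CHOW 4 and WT-CHOW 4. Dbi was highest in KO-CHOW 4 (4809 CPM), which has the lowest index (-1.42), and the 2 knockout triangles have more Tspo (4.17 and 4.42 CPM) than the other knockouts.

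The genes whose levels tracked Dbi most closely were found by the root-mean-square distance between centred log2 levels over the 16 libraries, among 11161 genes. They were Hrsp12 at 0.208, a deaminase of reactive intermediates, Gsta1 at 0.212, a glutathione transferase, Cdo1 at 0.221, cysteine dioxygenase, Apoc2 at 0.222, a lipoprotein protein, and Apcs at 0.244, a plasma pentraxin. The SD of the Dbi pattern itself was 1.38. Hrsp12 averaged 714 ± 393 CPM in KO-MCD, 516 ± 125 CPM in WT-MCD, 4667 ± 3119 CPM in KO-CHOW and 3083 ± 1120 CPM in WT-CHOW livers. All 5 fell with the diet in both genotypes, with log2 fold changes of -2.71 to -2.28 in the knockout and -2.58 to -2.23 in the wild type, and none was called between genotypes. The 5 genes were picked for their likeness to Dbi over these same libraries, so their falls follow from the choice and are no separate result. The levels also share the diets, the depth and the 3 libraries that stood apart, so the likeness is a description. Tspo had no close match: its nearest gene, Hdgfrp3, lay at 0.821 beside a pattern SD of 1.14, and Hdgfrp3 averaged under 2.50 CPM in every group.

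Acbd3 (NCBI gene 289312, chromosome 13), the Golgi partner of TSPO, was not called in any comparison. It was 37.4, 42.6, 47.3 and 41.2 CPM in KO-MCD libraries 1 to 4, against 33.9, 37.9, 35.3 and 29.8 CPM in KO-CHOW libraries 1 to 4, and only KO-MCD 1 lay inside the chow range. Wild-type levels were 40.2 to 47.6 CPM in WT-MCD and 23.4 to 49.1 CPM in WT-CHOW livers, and the diets overlapped. The log2 fold changes with diet were 0.30 ± 0.19 in the knockout (adjusted p = 0.21) and 0.23 ± 0.19 in the wild type (adjusted p = 0.34). Those for genotype were -0.09 ± 0.18 on MCD and -0.15 ± 0.19 on chow.

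The porin genes did not move together: in the knockout Vdac2 rose and Vdac3 fell with the diet, while with library totals only both log2 fold changes were above 0 (1.19 and 0.23). Vdac2 (NCBI gene 83531, chromosome 15), which also restrains the cell-death protein BAK, was 98.0, 110, 115 and 127 CPM in KO-MCD libraries 1 to 4, against 88.7, 96.5, 84.3 and 51.7 CPM in KO-CHOW libraries 1 to 4. The groups did not overlap, and the log2 fold change of 0.49 ± 0.18 was called (edgeR, adjusted p = 0.040). In the wild type the level was 120, 119, 111 and 120 CPM in WT-MCD libraries 1 to 4, against 105, 85.3, 93.6 and 70.4 CPM in WT-CHOW libraries 1 to 4. These groups did not overlap either, and the log2 fold change of 0.40 ± 0.18 had an adjusted p of 0.091. Such non-overlap was common: MCD lay wholly above chow for 17.6% of all genes tested in the knockout and 20.1% in the wild type. In either direction it was 31.6% in the knockout and 38% in the wild type. The call in the knockout was made in 15 of 29 alternatives. It was lost with DESeq2 size factors (0.45, adjusted p = 0.052), with only the knockout groups fitted (0.47, adjusted p = 0.11), and without any 1 of KO-MCD 2, 3 or 4, WT-MCD 1, 2, 3 or 4, KO-CHOW 3 or 4 and WT-CHOW 1 or 2. Without KO-CHOW 4 it was 0.32 (adjusted p = 0.099), and with the index of message length as a covariate it was 0.24 (adjusted p = 0.27). The wild-type change was called without KO-CHOW 4 (0.40, adjusted p = 0.026). For Vdac2 the difference of the diet effects, knockout minus wild type, was 0.081 ± 0.253 (edgeR, adjusted p = 0.9999).

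Vdac3 (NCBI gene 83532, chromosome 16), the porin least able to restore channel function in yeast lacking its own, went the other way in the knockout. It was 116, 89.0, 87.4 and 97.1 CPM in KO-MCD libraries 1 to 4, against 135, 131.5, 133 and 148 CPM in KO-CHOW libraries 1 to 4. The groups did not overlap, and the log2 fold change of -0.49 ± 0.14 was called (adjusted p = 0.013), although it was 0.23 when only library totals scaled the counts, a scaling that put the median gene at 0.77 on the log2 scale. In the knockout MCD lay wholly below chow for 14% of all genes tested and wholly above for 17.6%. The call was made in 27 of 29 alternatives, all but library totals and the index as a covariate (-0.32, adjusted p = 0.094). Wild-type levels were 93.1 to 105 CPM in WT-MCD and 93.6 to 138 CPM in WT-CHOW livers, with a log2 fold change of -0.18 ± 0.14 (adjusted p = 0.34), which was 0.35 with library totals only and 0.02 with the index as a covariate. The difference of the diet effects between genotypes was -0.31 ± 0.20 (adjusted p = 0.9999). On chow Vdac3 averaged 137 ± 7.36 CPM in KO-CHOW and 111 ± 19.1 CPM in WT-CHOW livers, a log2 fold change of 0.30 ± 0.14 (adjusted p = 0.48). Without the 3 libraries that stood apart it was 133 ± 1.86 CPM in KO-CHOW and 102 ± 7.58 CPM in WT-CHOW livers (n = 3 each), a log2 fold change of 0.39 that passed (adjusted p = 0.047). Only 1 of 29 alternatives made this call. It leaves out WT-CHOW 4, the WT-CHOW library with the most Vdac3 (138 CPM), so the value is a description.

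Vdac1 (NCBI gene 83529, chromosome 10), the main docking site of hexokinase on the outer membrane, was not called in any comparison. It was 121 to 163 CPM in KO-MCD and 153 to 259 CPM in KO-CHOW livers, the top value being that of KO-CHOW 4. Wild-type levels were 127 to 152 CPM in WT-MCD and 120 to 175 CPM in WT-CHOW livers. The log2 fold changes with diet were -0.37 ± 0.18 in the knockout (adjusted p = 0.11) and -0.05 ± 0.18 in the wild type (adjusted p = 0.87). With library totals only they were 0.38 and 0.49.

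The make-up of the porin counts was also compared as each gene's share of the summed Vdac1, Vdac2 and Vdac3 counts, which does not depend on the scaling between libraries. The Vdac2 share was 32.2 ± 3.69% in KO-MCD against 20.6 ± 6.32% in KO-CHOW livers, and 32.9 ± 1.83% in WT-MCD against 25.9 ± 5.27% in WT-CHOW livers (SD, n = 4 each). In both genotypes every MCD library lay above every chow library, and the two-sided exact permutation test gave 0.0286 each, the smallest p that 4 against 4 allows, or 0.114 after adjustment over the 12 share tests. The Vdac3 share was 27.8 ± 2.88% in KO-MCD against 34.4 ± 1.53% in KO-CHOW livers (exact permutation p = 0.0286, adjusted 0.114), and 27.4 ± 1.53% in WT-MCD against 31.9 ± 3.25% in WT-CHOW livers (exact permutation p = 0.0571, adjusted 0.171). The shares of a library add up to its whole porin count, so a higher share of 1 gene lowers those of the others. The 12 tests are therefore not independent. No share passed after adjustment. Without the 3 libraries that stood apart the Vdac2 share was 34.0 ± 1.41% in KO-MCD (n = 3), 32.9 ± 1.83% in WT-MCD (n = 4), 23.7 ± 1.53% in KO-CHOW (n = 3) and 28.3 ± 2.1% in WT-CHOW livers (n = 3). RefSeq names 15 pseudogenes after Vdac1, 5 after Vdac2 and 1 after Vdac3, none of them a row of the count table, so the counts of these genes, and their shares, are uncertain to the extent that reads were shared with them.

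**Figure D3:**
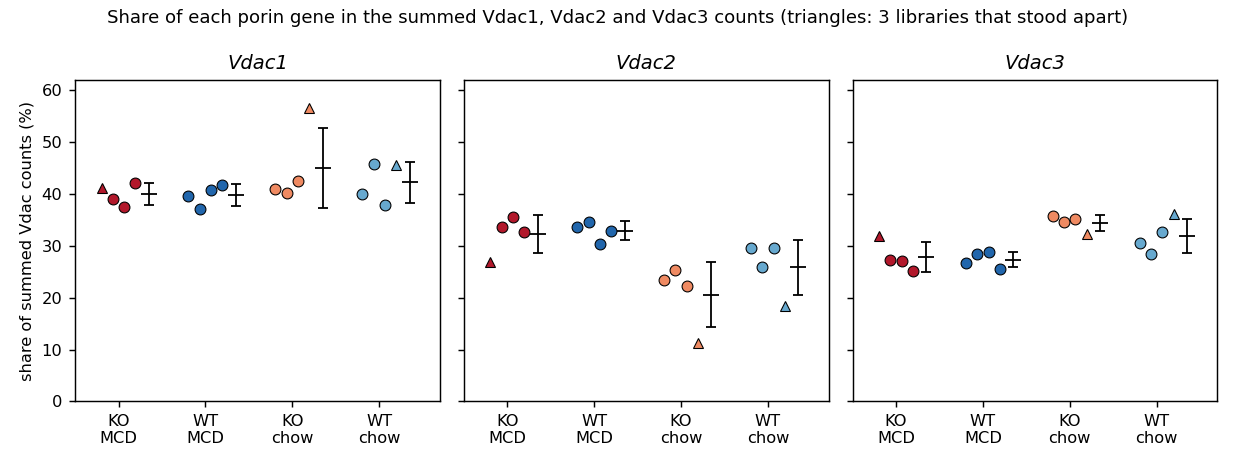
Share of each porin gene in the summed Vdac1, Vdac2 and Vdac3 counts of a library (y axis, percent) in the 4 groups (x axis). Points are libraries, triangles are KO-MCD 1, KO-CHOW 4 and WT-CHOW 4, and bars are the mean ± SD over 4 libraries. The Vdac2 share lies at 27.0 to 35.5% in KO-MCD against 11.3 to 25.3% in KO-CHOW livers.

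Slc25a5 (NCBI gene 25176, chromosome X), the ADP/ATP exchanger, kept a narrow range. It was 383, 297, 296 and 312 CPM in KO-MCD libraries 1 to 4, against 367, 355, 337 and 424 CPM in KO-CHOW libraries 1 to 4, and 315, 266, 366 and 311 CPM in WT-MCD libraries 1 to 4, against 318, 305, 333 and 314 CPM in WT-CHOW libraries 1 to 4. The diets overlapped in both genotypes, with log2 fold changes of -0.20 ± 0.15 in the knockout (adjusted p = 0.28) and -0.01 ± 0.15 in the wild type (adjusted p = 0.95). All 4 KO-CHOW libraries lay above all 4 WT-CHOW libraries, as KO-CHOW did for 1.75% of genes tested; KO-CHOW lay wholly below for another 2.59% of genes tested, which makes 4.34% that did not overlap. However, the log2 fold change of 0.22 ± 0.15 did not pass (adjusted p = 0.54), and it was -0.03 with library totals only. RefSeq names 9 pseudogenes after Slc25a5 and 3 after Dbi, which makes their counts uncertain in the same way.

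Atad3a (NCBI gene 298682, chromosome 5), the inner-membrane ATPase, rose with the diet in the knockout. It was 27.9, 35.1, 32.7 and 35.7 CPM in KO-MCD libraries 1 to 4, against 19.9, 24.8, 25.5 and 23.6 CPM in KO-CHOW libraries 1 to 4. The groups did not overlap, as with MCD higher for 17.6% of all genes tested and with MCD lower for 14%. The log2 fold change was 0.49 ± 0.17 (edgeR, adjusted p = 0.029). In the wild type it was 29.7, 32.9, 30.3 and 36.0 CPM in WT-MCD libraries 1 to 4, against 33.5, 23.0, 18.5 and 25.2 CPM in WT-CHOW libraries 1 to 4. WT-CHOW 1 lay among the MCD livers, and the log2 fold change was 0.36 ± 0.17 (adjusted p = 0.10), or 0.52 (adjusted p = 0.023) without that library. The difference of the diet effects, knockout minus wild type, was 0.126 ± 0.235 (edgeR, adjusted p = 0.9999). The call in the knockout was made in 24 of 29 alternatives. It was lost with the index as a covariate (0.35, adjusted p = 0.16) and without any 1 of KO-MCD 2, 3 or 4 or KO-CHOW 1 (0.42 to 0.49, adjusted p up to 0.084).

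Counted together, 4 of the 8 genes were called with the diet in the knockout, Vdac2 and Atad3a higher and Dbi and Vdac3 lower, beside 40.4% of all genes tested. On the wild-type side Dbi alone was called, 1 of 8 beside 34.1% of all genes. The median log2 fold change of the 8 was -0.03 in the knockout, where that of all genes tested was 0.04, and 0.11 in the wild type, where that of all genes was -0.002. The knockout count was 5, Acbd3, Vdac2, Slc25a5 and Atad3a higher and Dbi lower, and the wild-type count was 7 when only library totals scaled the counts, which put the log2 fold change of the median gene at 0.77 in the knockout and 0.53 in the wild type. Without the 3 libraries that stood apart the wild-type count was 3. Over all genes, the 29 alternatives called 2969 to 6851 with the diet in the knockout and 2785 to 5664 in the wild type. Counts of the 8 genes in different fits therefore stand beside different shares of all genes, and no result about the 8 is read from them. Between genotypes none of the 8 was called on MCD, where edgeR called 0 of 11162 genes, or 0% of them, 81 had an unadjusted p under 0.05 and DESeq2 called 0. None was called on chow, where 1 gene, 0.00896% of those tested, was called, 1153 had an unadjusted p under 0.05 and DESeq2 called 14. Without the 3 libraries that stood apart 516 genes were called on chow, Tspo and Vdac3 among them, and 1 gene on MCD, Tspo. The difference of the diet effects had 0 calls among all genes, or 0%, with 330 at an unadjusted p under 0.05 and 1 by DESeq2. The comparisons of diet and of genotype share libraries, so their values are not independent of each other.

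**Figure D4:**
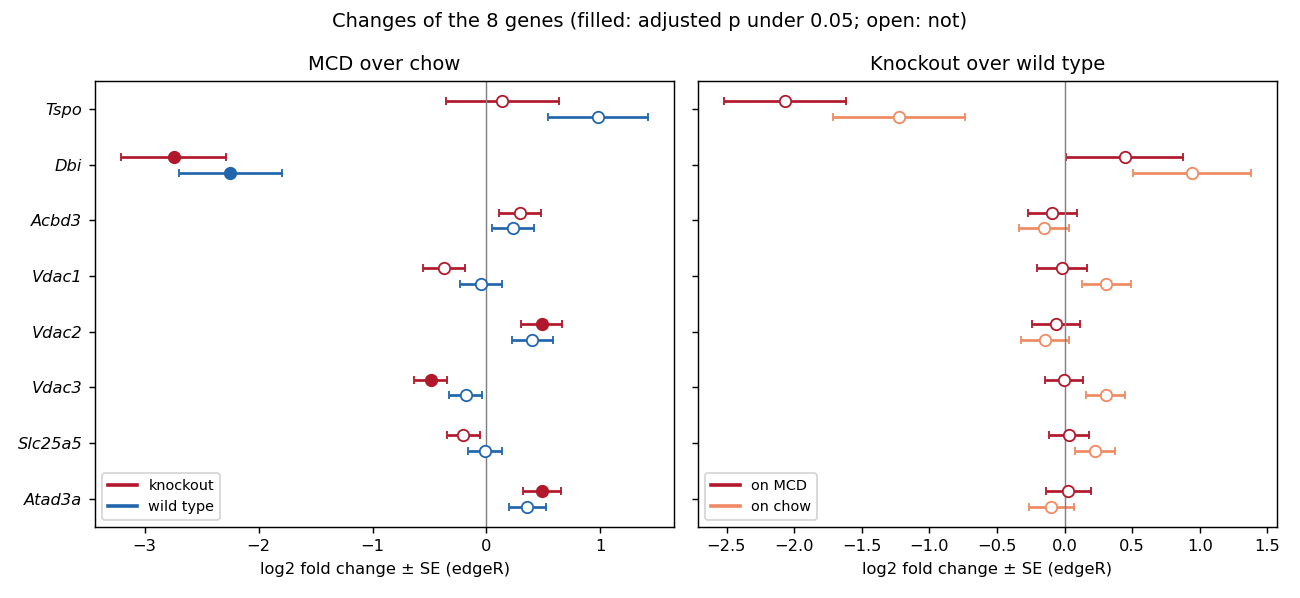
Log2 fold change ± SE of the 8 genes from edgeR, for MCD over chow (left, knockout and wild type) and for knockout over wild type (right, on MCD and on chow). Filled points passed an adjusted p of 0.05: Dbi in both genotypes and Vdac2, Vdac3 and Atad3a in the knockout. Tspo lies furthest to the left on the right side (-2.07 on MCD and -1.23 on chow).

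Genes of the surrounding pathways were counted in lists. No list gene passed between genotypes on either diet, so what follows is the diet alone, beside background shares of 21.9% higher and 18.5% lower in the knockout and 18.2% higher and 15.9% lower in the wild type. Genes in each count are those that passed the filter. Of 4 acyl-CoA-binding relatives (5 in the table), 3 fell and 0 rose in the knockout and 2 fell and 1 rose in the wild type. Acbd4, a peroxisomal tether, fell by 1.46 in the knockout and by 1.41 in the wild type on the log2 scale, with adjusted p of 0.028 in the knockout and 0.039 in the wild type. Its chow levels were uneven, with a median of 25.7 and a maximum of 104 CPM in KO-CHOW livers. In WT-CHOW livers the median was 22.9 and the maximum 60.8 CPM, against medians of 14.3 CPM in KO-MCD and 11.9 CPM in WT-MCD livers. Eci2, an enoyl-CoA isomerase with an acyl-CoA-binding domain, fell by 0.56 in the knockout and by 0.50 in the wild type. Acbd5, which binds peroxisomes to the endoplasmic reticulum, rose in the wild type (0.88 ± 0.29, adjusted p = 0.031) and had a log2 fold change of 0.60 in the knockout (adjusted p = 0.11). Its wild-type levels overlapped between diets, at 42.7 to 54.6 CPM in WT-MCD and 14.2 to 49.55 CPM in WT-CHOW livers. The difference of its diet effects, knockout minus wild type, was -0.276 ± 0.415 (edgeR, adjusted p = 0.9999).

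Of 13 inner-membrane carriers, 3 rose and 6 fell in the knockout and 1 rose and 4 fell in the wild type. Slc25a1, the citrate carrier, averaged 121 ± 14.8 CPM in KO-MCD, 125 ± 21.8 CPM in WT-MCD, 223 ± 19.2 CPM in KO-CHOW and 193 ± 24.2 CPM in WT-CHOW livers, and fell in both genotypes. Slc25a4, another ADP/ATP exchanger, rose in both, at 11.5 ± 1.72 CPM in KO-MCD, 12.0 ± 2.75 CPM in WT-MCD, 5.93 ± 1.32 CPM in KO-CHOW and 6.69 ± 1.23 CPM in WT-CHOW livers (adjusted p = 0.00256 in the knockout and 0.00622 in the wild type). Of 12 outer-membrane import genes, 0 rose and 3 fell in the knockout and 1 rose and 1 fell in the wild type. Mtch2, an insertase of outer-membrane proteins, fell in both, at 138 ± 21.8 CPM in KO-MCD, 145 ± 13.8 CPM in WT-MCD, 248 ± 28.1 CPM in KO-CHOW and 239 ± 26.8 CPM in WT-CHOW livers.

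Of 15 genes of the permeability transition and of outer-membrane cell death (17 in the table), 5 rose and 2 fell in the knockout and 4 rose and 2 fell in the wild type. Bok, a pore-forming member of the BCL-2 family, averaged 6.13 ± 3.25 CPM in KO-MCD, 5.82 ± 3.02 CPM in WT-MCD, 1.27 ± 0.139 CPM in KO-CHOW and 1.25 ± 0.204 CPM in WT-CHOW livers, and rose in both genotypes. Bak1, the pore former that VDAC2 holds in check, rose by a log2 fold change of 1.04 ± 0.23 in the knockout and 0.79 ± 0.23 in the wild type. Of 15 genes that bring cholesterol to mitochondria or oxidise its side chain (17 in the table), 2 rose and 4 fell in the knockout and 1 rose and 3 fell in the wild type. Soat1, which esterifies cholesterol, averaged 4.73 ± 1.90 CPM in KO-MCD, 4.43 ± 1.37 CPM in WT-MCD, 0.499 ± 0.216 CPM in KO-CHOW and 0.619 ± 0.487 CPM in WT-CHOW livers, and rose in both genotypes. Fdx1, the ferredoxin that passes electrons to mitochondrial cytochromes P450, fell in both, by 1.44 in the knockout and by 1.30 in the wild type on the log2 scale. Its KO-CHOW levels had a median of 91.0 and a maximum of 212 CPM, and its KO-MCD levels a median of 34.2 and a maximum of 74.0 CPM.

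Of 11 Golgi and protein kinase A partners of ACBD3, 7 rose and 1 fell in the knockout and 6 rose and 1 fell in the wild type. Pi4kb, the lipid kinase that ACBD3 brings to the Golgi, averaged 36.6 ± 4.76 CPM in KO-MCD, 40.4 ± 4.50 CPM in WT-MCD, 20.2 ± 1.43 CPM in KO-CHOW and 24.3 ± 4.00 CPM in WT-CHOW livers, and rose in both genotypes (adjusted p = 0.000476 in the knockout and 0.00176 in the wild type). Prkaca, a catalytic subunit of protein kinase A, was the 1 that fell, by 0.76 in the knockout and by 0.80 in the wild type on the log2 scale. Prkar1b, a regulatory subunit called higher in both genotypes, is given as a level only, 0.556 to 1.72 CPM in KO-MCD, 0.718 to 3.20 CPM in WT-MCD, 0 to 0.114 CPM in KO-CHOW and 0 to 0.289 CPM in WT-CHOW livers.

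Of 17 genes of the inner-membrane scaffold, 4 rose and 5 fell in the knockout and 5 rose and 3 fell in the wild type. Spg7, a subunit of an inner-membrane protease, rose (1.01 ± 0.17 in the knockout and 0.77 ± 0.17 in the wild type, log2 fold change), and Phb2, a prohibitin, fell by 0.67 in the knockout and by 0.53 in the wild type. Of 17 genes of mitophagy and mitochondrial dynamics, 3 rose and 4 fell in the knockout and 3 rose and 2 fell in the wild type. Mfn2, which fuses outer membranes, rose to 78.3 ± 10.9 CPM in KO-MCD livers, against 46.0 ± 7.93 CPM in KO-CHOW livers, and to 83.3 ± 8.63 CPM in WT-MCD livers, against 45.2 ± 9.90 CPM in WT-CHOW livers. Fkbp8, a mitophagy receptor, fell to 194 ± 44.5 CPM in KO-MCD livers, against 440.3 ± 159 CPM in KO-CHOW livers, and to 192 ± 21.7 CPM in WT-MCD livers, against 342 ± 22.4 CPM in WT-CHOW livers. The KO-CHOW levels of Fkbp8 had a median of 369 and a maximum of 678 CPM. Of 10 genes of contacts between mitochondria and the endoplasmic reticulum at VDAC, 2 rose and 3 fell in the knockout and 2 rose and 0 fell in the wild type. Rmdn3 fell in the knockout (log2 fold change -0.805 ± 0.179, adjusted p = 0.00252), with -0.283 ± 0.178 in the wild type (adjusted p = 0.23). Itpr1 rose in the wild type (0.766 ± 0.181, adjusted p = 0.00457), with 0.402 ± 0.181 in the knockout (adjusted p = 0.085). Itpr3, a calcium channel of the reticulum, rose in the knockout (1.97 ± 0.51, adjusted p = 0.00636), with 1.18 ± 0.47 in the wild type (adjusted p = 0.065). Its level was near the floor, at 1.04 to 2.48 CPM in KO-MCD and 0 to 1.02 CPM in KO-CHOW livers.

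**Figure D5:**
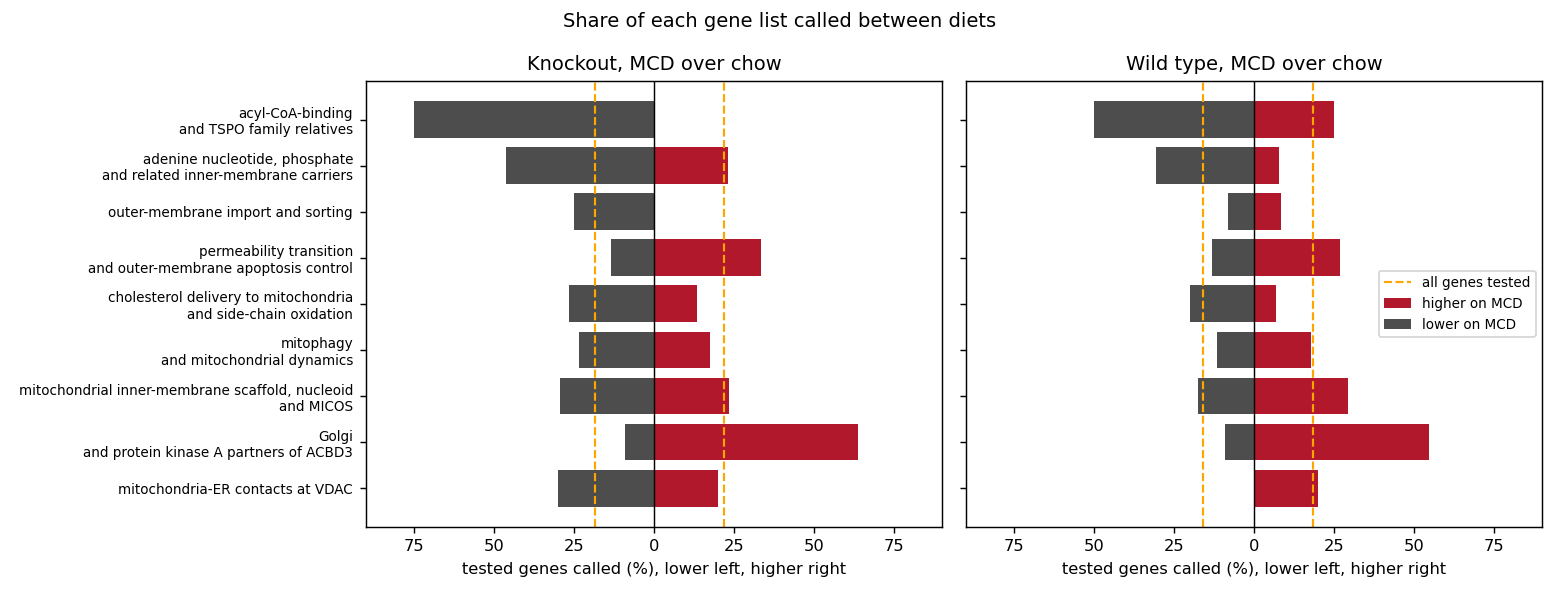
Share of the tested genes of 9 lists that edgeR called higher (right of 0) or lower (left of 0) on MCD than on chow, in the knockout and in the wild type, in percent on the x axis. Dashed lines are the shares over all genes tested: 21.9% higher and 18.5% lower in the knockout, 18.2% higher and 15.9% lower in the wild type. The longest bars to the right are those of the ACBD3 partners, 7 of 11 genes in the knockout and 6 of 11 in the wild type.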

How the data were processed

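Messenger RNA of 16 rat liver libraries was sequenced after a stranded mRNA preparation, per the labels' protocols. The authors deposited expected counts per gene, and a second table whose normalised signal is the rounded count times 1 constant per library for each of 202017 values above 0, within a relative departure of 5.1e-15. The submitters' processing notes name Bowtie2 2.1.0, RSEM 1.2.15 and build rn6, without roles. The annotation and the strand setting are not given there.

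The rounded counts were tested with edgeR 4.0.16 (R 4.3.3): filterByExpr, TMM factors, 1 term per group, and the robust quasi-likelihood test with 12 residual degrees of freedom and a biological coefficient of variation of 28%. Calls needed a p under 0.05 after Benjamini-Hochberg adjustment over the 11162 genes. The SE is the log2 fold change over the root of the test's F. Levels are TMM-scaled CPM, and log2 levels have a prior count of 2. Expected counts divide reads among close copies. The 29 alternatives include limma 3.58.1 on the second table, which gave the deposited signal a pseudocount of 0.5 or 2, and DESeq2 1.42.0. Share tests used scipy 1.17.1. Scripts were tested on simulated data.

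The genes and lists were chosen with earlier results of these data known. Every pathway list is given by its counts, and the members named from it are among its 3 called ones of smallest p. Of the cell-type lists only those of macrophages, hepatocytes and steroid-forming cells are described. The macrophage genes named were picked after their values were seen. No library repeats another of its group (chi-square per gene 15.3 to 383.9). Promoters came from RefSeq, assembly GRCr8.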

Additional observations from a re-analysis of the deposited data

Results flagged for a closer look

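In groups of 4 libraries, the gap of the highest or lowest library to the nearest other was divided by the range of the 4. A library was set apart where this ratio exceeded Dixon's critical value, which chance does in about 1 of 20 groups. This was so in 6 of 32 combinations of gene and group and in 1 of 12 porin shares. Tspo was 4.42 CPM in KO-CHOW 4, against 0.656 to 1.29 CPM in the other KO-CHOW libraries. Dbi was 673 CPM in KO-MCD 1, against 225 to 240 CPM in the others, 4809 CPM in KO-CHOW 4, against 1222 to 1629 CPM, and 1815 CPM in WT-CHOW 4, against 906 to 1038 CPM. Vdac1 was 259 CPM in KO-CHOW 4, against 153 to 161 CPM, and its share of the porin counts there was 56.5%, against 40.2 to 42.6%. These 6 values belong to the 3 libraries with a low index of message length. The remaining value is Vdac2 at 111 CPM in WT-MCD 3, below 119 to 120 CPM in the other WT-MCD libraries, which lie close together.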

How the results depend on the processing

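The Dbi falls with diet kept their call in all 29 alternatives in both genotypes. Values below are log2 fold changes or counts of the 8 genes called, and the cause of a change was not tested unless stated. Over all genes, the alternatives called 2969 to 6851 with diet in the knockout and 2785 to 5664 in the wild type. Between genotypes they called 0 to 1 on MCD and 0 to 516 on chow. The counts of the 8 genes are to be read beside these ranges. With library totals only, which put the median gene at 0.77 (knockout) and 0.53 (wild type) between diets, 7 genes were called with diet in the wild type, and signs turned for Vdac1 (0.38 knockout, 0.49 wild type), Vdac3 (0.23 and 0.35) and Slc25a5 (0.53 and 0.52) with diet, for Slc25a5 between genotypes (-0.015 on MCD, -0.025 on chow) and in the difference of diet effects (0.009), and for Atad3a on MCD (-0.02). Without the 3 libraries that stood apart, Tspo between genotypes was -2.68 on MCD and -1.93 on chow, the genes called were 3 with diet in the wild type, 1 between genotypes on MCD and 2 on chow, and signs turned for Vdac1 with diet in the wild type (0.048) and on MCD for Slc25a5 (-0.059) and Dbi (-0.11). Without KO-MCD 1 and KO-CHOW 4, which were picked for their Tspo, Tspo was -2.68 on MCD and -2.04 on chow, the counts were 3, 1 and 1, and Slc25a5 (-0.059) and Dbi (-0.11) on MCD, Vdac2 on chow (0.019) and Vdac2 in the difference of diet effects (-0.021) turned. With the index of message length as a covariate, Tspo on MCD was -2.68 and called, Tspo and Dbi, 2 genes, were called with diet in each genotype and 1 between genotypes on MCD, and signs turned with diet in the wild type for Vdac1 (0.19), Vdac3 (0.019) and Slc25a5 (0.185), and on MCD for Dbi (-0.13), Vdac2 (0.062) and Slc25a5 (-0.053). Fitting only the groups compared called 2 genes with diet in the wild type and gave Vdac3 0.007 on MCD, limma on the deposited table with a pseudocount of 2 called 2, the stricter filter gave Vdac1 0.001 and Slc25a5 0.027, and upper quartile factors gave Slc25a5 0.026, all with diet in the wild type. The stricter filter dropped Tspo, and fitting only 2 groups gives no difference of diet effects.

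Leaving out each library in turn, the genes called with diet ranged from 2 to 4 in the knockout and from 1 to 3 in the wild type. Over all genes, these fits called 3347 to 5343 with diet in the knockout and 2832 to 4566 in the wild type. Tspo between genotypes ranged from -2.68 to -1.86 on MCD and from -2.04 to -0.94 on chow. With 1 library out, signs turned as follows, given as ranges. With diet they were -0.47 to 0.95 for Tspo in the knockout, and -0.13 to 0.049 for Vdac1 and -0.092 to 0.061 for Slc25a5 in the wild type. Between genotypes on MCD they were -0.11 to 0.60 for Dbi, -0.099 to 0.045 for Vdac1, -0.1 to 0.043 for Vdac3, -0.06 to 0.116 for Slc25a5 and -0.013 to 0.099 for Atad3a. On chow they were -0.24 to 0.019 for Vdac2 and -0.22 to 0.092 for Atad3a. In the difference of diet effects they were -1.05 to 0.16 for Dbi, -0.078 to 0.24 for Acbd3, -0.081 to 0.18 for Vdac2 and -0.06 to 0.24 for Atad3a. None of these had been called.

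Libraries that share a replicate number correlated at -0.32 to 0.51, so the numbers are not taken as pairs. With the replicate block 4 genes were called with diet in the knockout and 1 in the wild type, and Tspo was -2.15 on MCD and -1.27 on chow, so no call of these genes changed. Over all genes the block called 4238 with diet in the knockout and 3653 in the wild type, against 4514 and 3809 without it. The count of all genes called between genotypes on chow ranged from 0 to 516 over the alternatives, and it was 516 without the 3 libraries that stood apart. Tspo rests on 6 to 162 counts a library, which limits its precision.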
